A study of Mus musculus with 72 samples.

Results

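The presynaptic vesicle release machinery was followed through 33 genes, taken as a fixed list of gene symbols, out of 53715 gene identifiers counted in every library. The list holds 2 synapsins (Syn1 and Syn2), the vesicle membrane proteins Syp, Sv2a, Sv2b and Sv2c, Rab3a and its effector Rph3a, the vesicular glutamate transporters Slc17a6, Slc17a7 and Slc17a8, the calcium sensors Syt1, Syt2, Syt7, Doc2a and Doc2b, the SNARE genes Snap25, Stx1a, Vamp1 and Vamp2, the complexins Cplx1, Cplx2 and Cplx3, the active zone genes Rims1, Rims2, Bsn, Pclo, Erc2, Unc13a, Unc13b and Unc13c, and Nsf and Napb, which take spent SNARE complexes apart. All 33 were found among the counted genes. Total RNA was sequenced from male C57BL/6J mice aged 18 weeks, 6 per genotype. Gnb5-/- mice carried a germline deletion of 1 exon of Gnb5, the gene of the G protein subunit β5, so every cell type had lost it from conception, and Gnb5+/+ mice were their controls. Cerebellum (Cb), hippocampus (Hc) and cerebral cortex (Co) of both genotypes gave 6 brain groups of 6 libraries each. Atria and ventricles of Gnb5+/+, Gnb5+/- and Gnb5-/- mice gave 6 heart groups of 6, used here as background. Each library was 1 piece of tissue from 1 mouse with all its cell types mixed, and one mouse gave all of its tissues, so the regions compared within a genotype came from the same animals.

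Neurotransmitter is released when a synaptic vesicle fuses with the presynaptic membrane. Vesicles are filled by transporters, tethered and primed at the active zone by RIM, Munc13, Bassoon and Piccolo proteins, and held ready by SNARE proteins and complexins until calcium binds a synaptotagmin. Gβ5 pairs with regulators of G protein signalling that limit inhibitory G protein signalling in neurons, and released Gβγ subunits are known to act on the release machinery.

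Libraries held 29204390 to 48807435 counted reads, with a median of 42339164 in brain and 35038930 in heart. Gnb5 fell in each Gnb5-/- brain region, from 143.9 ± 8.24 to 20.1 ± 1.19 CPM (reads of the gene scaled to a common library total, ± SD, n = 6) in cerebellum, from 102.4 ± 4.55 to 13.3 ± 0.840 CPM in hippocampus and from 135.4 ± 9.09 to 15.9 ± 2.08 CPM in cortex, and no Gnb5-/- library reached a Gnb5+/+ library of its region. From the other 33 brain libraries 3 stood apart, all of them Gnb5-/-: replicate 2 of cerebellum and replicates 3 and 5 of cortex. Reads assigned to no gene made up 6.86% to 8.32% of these libraries and 11.7% to 16.97% of the others. Their tissue markers differed too. Summed choroid plexus markers (6 genes) reached 905.2 CPM in the cerebellar library against 24.9 to 33.7 CPM in the Gnb5+/+ cerebella, though these markers also varied from 15.7 to 1584 CPM among the other cortical and hippocampal libraries and were at 37.5 CPM in replicate 3 of cortex. In the same cerebellar library oligodendrocyte markers reached 5453 CPM against 2820 to 3808 CPM, and striatal markers reached 1179 CPM in replicate 3 of cortex against 331 to 749.9 CPM in Gnb5+/+ cortex. Markers of cerebellar neurons (6 genes) were at 509 and 295.1 CPM in replicates 3 and 5 of cortex and at 163.8 to 179 CPM in Gnb5+/+ cortex. Summed astrocyte markers (6 genes) lay at 2263, 2798 and 3476 CPM in these libraries, below every Gnb5+/+ library of the same region. Hippocampal markers (6 genes) fell to 102 CPM in the cerebellar library against 290.4 to 373 CPM in the Gnb5+/+ cerebella. The marker genes differ in length, and these shifts were not separated from the trend with gene length given below. The part of these differences in the results below was not tested, and calls that rest on the 3 libraries are given with and without them.

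In Gnb5+/+ brain, Snap25, the membrane SNARE that forms the fusion complex with syntaxin and VAMP, had the highest level per length of all members in each region. Its CPM per kilobase of exon (RPKM) were 323.5 ± 18.0 in cerebellum, 262.3 ± 12.8 in hippocampus and 298.9 ± 10.8 in cortex (SD, n = 6). Vamp2, the vesicle SNARE, had 146.5, 232.1 and 237.5 RPKM in the same order. Slc17a8, Doc2a and Cplx3 had the lowest levels per length in cerebellum, at 0.0723, 0.0910 and 0.200 RPKM. Most members, such as Syp, Vamp2 and Nsf, were strongly expressed in every region, whereas Doc2a, Stx1a, Cplx3 and Slc17a8 were nearly lacking from cerebellum.

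**Figure D1:**
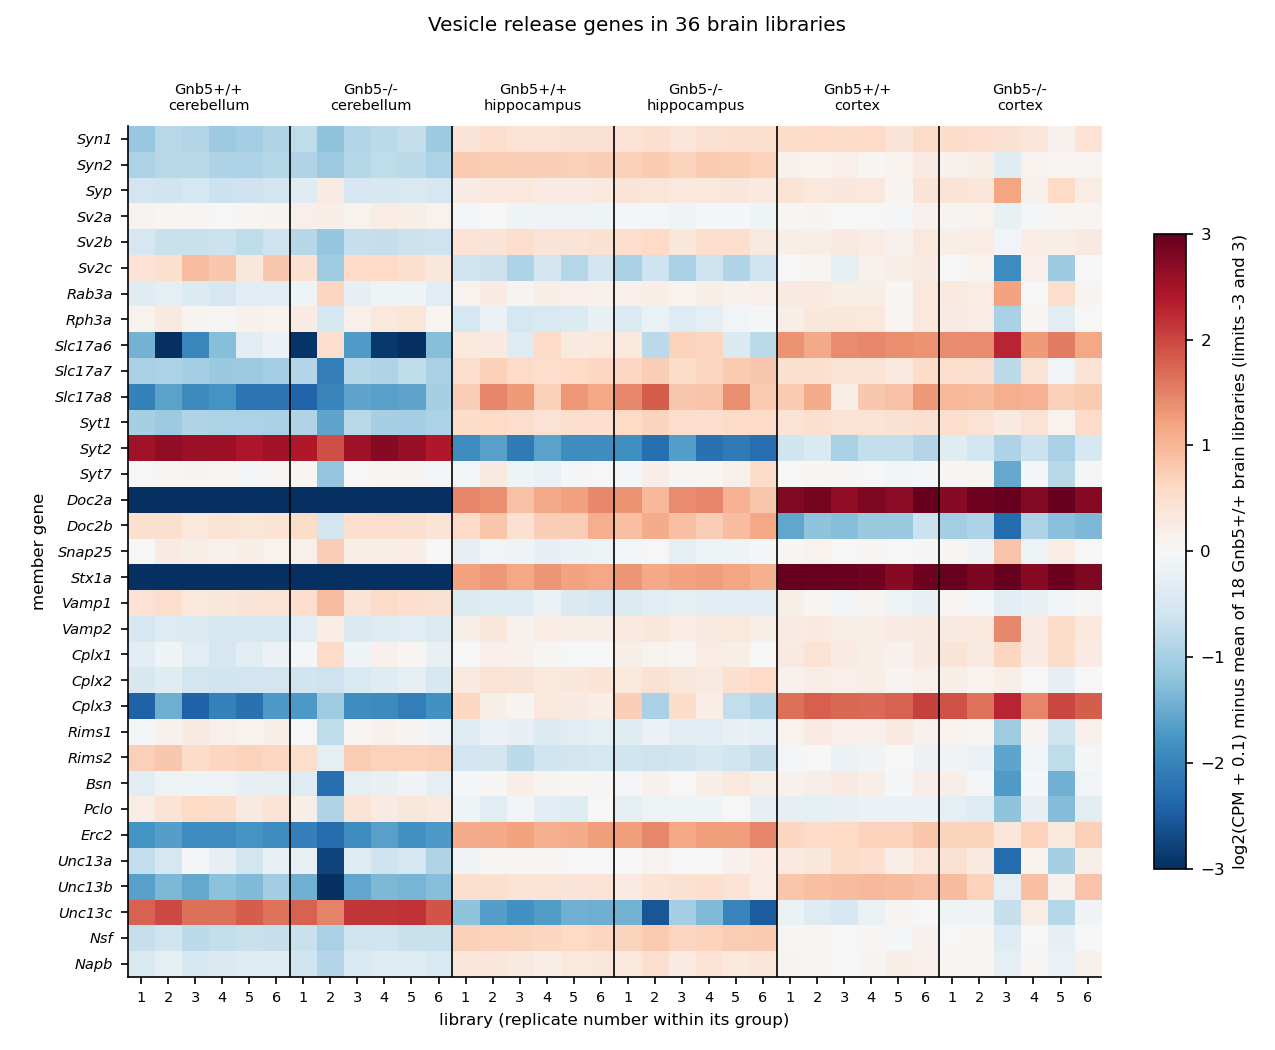
Levels of the 33 members in the 36 brain libraries, with genes in rows by role, libraries in columns by region and genotype, and colour for the level. Stx1a, Doc2a, Cplx3 and Slc17a8 are low in all cerebellar libraries, and Syt2 and Unc13c are high there.

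The regions were compared within Gnb5+/+ mice to ask whether the messages of the release machinery had the same composition in each. Only RNA of the dissected tissue was measured, so the proteins at its nerve terminals were not tested. Between cerebellum and hippocampus 32 of the 33 members differed by edgeR's quasi-likelihood test, 10 higher and 22 lower in cerebellum, where 77.2% of all 18577 genes tested differed (37.6% higher, 39.5% lower). Between cerebellum and cortex 30 members differed, 8 higher and 22 lower in cerebellum, against 77.4% of all genes (37.2% higher, 40.3% lower). Hippocampus and cortex differed in 25 members, 9 higher and 16 lower in hippocampus, against 48.3% of all genes (23.8% higher, 24.6% lower). The median size of the log2 difference over the members was 1.07, 0.76 and 0.36 in these comparisons, where it was 0.54, 0.55 and 0.22 over all genes tested. In bulk tissue, fewer cells of a type cannot be told apart from less RNA per cell. By mean CPM, 21 members had their lowest level in cerebellum, all 21 below the next region by the test, 10 in hippocampus and 2 in cortex. All genes were not ordered by region in this way, so these counts have no share to be set against.

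Among the SNARE genes Stx1a had the widest contrast. Stx1a, a plasma membrane syntaxin, had a lowest, median and highest level of 1.41, 2.06 and 2.15 CPM in Gnb5+/+ cerebellum, 79.4, 82.2 and 89.0 CPM in hippocampus, and 238.8, 275.4 and 283.3 CPM in cortex. The regions did not overlap in any mouse. Cortex exceeded cerebellum 138-fold (log2 difference of cerebellum minus cortex -7.11, SE 0.08, adjusted p = 4.75e-24) and hippocampus 3.25-fold. Vamp1 ran the other way, with means of 198.0 ± 11.3, 114.6 ± 8.31 and 147.4 ± 15.6 CPM, while Vamp2 was lower in cerebellum (558.1 ± 17.3 CPM) than in hippocampus (884.0 ± 46.0 CPM) and cortex (904.8 ± 25.7 CPM). Vamp2 did not differ between hippocampus and cortex beyond its spread (adjusted p = 0.425). Snap25 was 1.23-fold higher in cerebellum than in hippocampus and 1.08-fold higher than in cortex.

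Among the calcium sensors, Syt2, a fast synaptotagmin, lay at 600.6, 647.6 and 697.4 CPM (lowest, median, highest) in cerebellum, at 25.5, 30.5 and 36.6 CPM in hippocampus and at 56.4, 67.8 and 82.1 CPM in cortex. All 6 cerebella were far above every other Gnb5+/+ brain library, 20.6-fold over hippocampus (log2 4.36, SE 0.09) and 9.54-fold over cortex (log2 3.25, SE 0.09). Syt1, the main sensor of forebrain synapses, had 629.0 ± 24.6 CPM in cerebellum, 1786 ± 65.0 in hippocampus and 1688 ± 31.3 in cortex. Of the summed per-length level of both genes, Syt2 made up 52.9% ± 1.959 in cerebellum, 1.89% ± 0.269 in hippocampus and 4.20% ± 0.501 in cortex. With the longest coding transcript as length the cerebellar share was 41.9%. The small step of Syt1 from hippocampus to cortex (log2 0.08, adjusted p = 0.0404) lost its call without the filter on low counts and when any of replicates 1, 2, 3, 5 or 6 was left out. Syt7, a slow, high-affinity sensor, was not called between any regions, with means of 458.0 ± 13.8, 442.6 ± 51.6 and 445.3 ± 15.4 CPM, though without replicate 2 cerebellum was above hippocampus (log2 0.11, adjusted p = 0.0296).

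Doc2a and Doc2b, calcium sensors linked to spontaneous and asynchronous release, were distributed in opposite ways. Doc2a had 0.124, 0.287 and 0.346 CPM in cerebellum (lowest, median, highest), 10.3, 14.1 and 15.6 CPM in hippocampus and 36.01, 39.2 and 45.1 CPM in cortex, and its regions did not overlap. Doc2b had 114.9, 123.2 and 129.4 CPM in cerebellum, 126.5, 153.7 and 196.8 CPM in hippocampus and 31.1, 41.1 and 59.1 CPM in cortex. Every cortical library was lower than every other one, and hippocampus exceeded cortex 3.68-fold (log2 1.88, SE 0.12). Doc2a therefore made up 0.318% of the summed Doc2 level per length in cerebellum, 12.1% in hippocampus and 59.7% ± 3.92 in cortex.

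**Figure D2:**
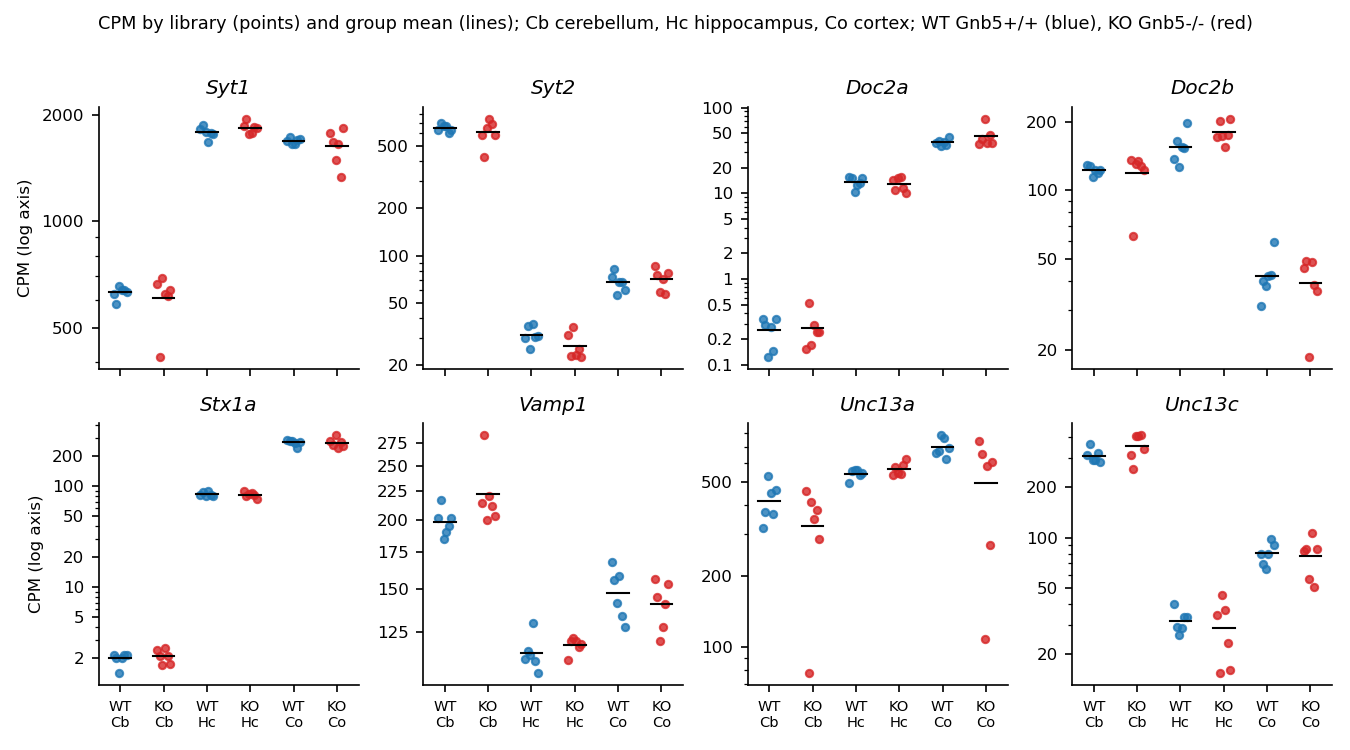
CPM of selected members in each brain library (points, log axis) with group means (lines), for cerebellum, hippocampus and cortex of Gnb5+/+ (blue) and Gnb5-/- (red) mice. The regions lie far apart for Stx1a, Syt2 and Doc2a, and most group means of the genotypes of a region are close to each other. Unc13a is lower in Gnb5-/- cortex (log2 -0.51) and cerebellum (log2 -0.35), without a call, where the means include the 3 libraries that stood apart.

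At the active zone, the Munc13 genes, which prime vesicles for fusion, were split between Unc13c, highest in cerebellum, and Unc13a and Unc13b, lowest there. Unc13c (Munc13-3) reached 283.3, 301.5 and 362.1 CPM in cerebellum, 26.0, 31.2 and 39.8 CPM in hippocampus and 64.5, 80.0 and 97.9 CPM in cortex (lowest, median, highest). Cerebellum was above the other regions in every mouse, 9.76-fold over hippocampus (log2 3.29, SE 0.11) and 3.85-fold over cortex. Unc13b was lower in cerebellum (30.8 ± 4.55 CPM) than in hippocampus (105.5 ± 3.07) and cortex (146.8 ± 4.71), and Unc13a rose from 414.6 ± 76.4 CPM in cerebellum over 540.6 ± 24.4 in hippocampus to 699.6 ± 63.9 in cortex. Unc13c thus held 51.0% ± 6.22 of the summed Munc13 level per length in cerebellum, 7.09% ± 1.30 in hippocampus and 12.96% ± 2.44 in cortex. The cerebellar majority depended on the length. With the longest coding transcript (10255 bases for Unc13a, against 12623 of exon), Unc13c no longer exceeded Unc13a there.

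The scaffold genes were divided. Erc2, which encodes an active zone protein of the ELKS family, had 30.5 ± 2.03 CPM in cerebellum against 238.2 ± 11.9 in hippocampus (log2 -2.97, SE 0.05) and 171.2 ± 11.2 in cortex (log2 -2.49, SE 0.05). Rims2 was highest in cerebellum, at 236.4 ± 14.6 CPM against 98.4 ± 6.01 and 141.5 ± 8.33. Pclo, which encodes Piccolo, was also highest there, at 632.3 ± 64.6 CPM against 411.3 ± 46.7 in hippocampus and 407.4 ± 14.3 in cortex, and the last 2 regions did not differ beyond their spread (adjusted p = 0.902). Bsn, which encodes its relative Bassoon, was lower in cerebellum (562.1 ± 31.0 CPM) than in hippocampus (674.9 ± 39.6) and cortex (721.2 ± 51.6). Hippocampus and cortex did not differ in Bsn by the test (adjusted p = 0.115), but did when the mouse was entered as a block (log2 -0.10, adjusted p = 0.0238) and without replicate 5 (log2 -0.13, adjusted p = 0.0419). Rims1 did not differ between cerebellum and cortex (320.1 ± 21.8 and 329.1 ± 14.9 CPM).

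Of the vesicular glutamate transporters, Slc17a7 (VGLUT1) supplied most of the message, with 411.9 ± 18.2 CPM in cerebellum, 1267 ± 60.0 in hippocampus and 1139 ± 67.4 in cortex. It held 98.5%, 98.5% and 96.97% of the summed level of the 3 transporters per length. Slc17a6 (VGLUT2) was lowest in cerebellum, at 5.74 ± 4.06 CPM, with libraries from 0.523 to 11.04 CPM, against 9.54 to 18.7 CPM in hippocampus and 27.6 to 33.9 CPM in cortex. Slc17a8 (VGLUT3) had 0.341 ± 0.0719 CPM in cerebellum, 3.61 ± 0.759 in hippocampus and 3.02 ± 0.746 in cortex. Only cerebellum stood apart in Slc17a8, since hippocampus and cortex did not differ beyond their spread (adjusted p = 0.227).

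Like Slc17a7, most vesicle proteins and both recycling genes had their lowest level in cerebellum. Syn1, a phosphoprotein that clusters vesicles, had 146.9 ± 12.99 CPM in cerebellum, 390.4 ± 13.2 in hippocampus and 416.6 ± 19.6 in cortex, and Syn2 had 269.1 ± 7.36, 834.0 ± 10.6 and 546.0 ± 23.6 CPM. Syp, the vesicle membrane protein synaptophysin, had 582.5 ± 17.3, 1056 ± 21.1 and 1086 ± 81.0 CPM. Of these, Syn2 alone differed between hippocampus and cortex by the test.

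Nsf, the ATPase that separates SNARE complexes, peaked in hippocampus at 1425 ± 40.5 CPM, with 558.6 ± 25.6 in cerebellum and 923.1 ± 32.4 in cortex, and Napb, its SNAP cofactor, had the same order at 378.4 ± 23.0, 620.5 ± 27.3 and 533.4 ± 26.0 CPM. The SV2 genes, which encode transporter-like vesicle glycoproteins, went separate ways. Sv2b was lower in cerebellum (281.1 ± 16.1 CPM) than in hippocampus (590.7 ± 21.1) and cortex (514.2 ± 23.8). Sv2c was higher there (116.6 ± 19.8 against 46.2 ± 4.74 and 77.9 ± 10.1 CPM), and Sv2a was nearly level across regions (474.6 ± 13.8, 429.0 ± 13.6 and 468.9 ± 21.0 CPM). Rab3a, the small GTPase of docked vesicles, was lower in cerebellum (276.6 ± 15.7 CPM) than in hippocampus (393.8 ± 15.98) and cortex (413.2 ± 28.5). Its effector Rph3a was lowest in hippocampus (323.2 ± 36.3 CPM), and its step between cerebellum and cortex (log2 -0.15, adjusted p = 0.0421) lost its call with other size factors, without the filter on low counts, and without replicate 1, 3, 4 or 6. Complexins clamp and help fusion. Cplx1 and Cplx2 were lower in cerebellum (310.0 ± 28.2 and 675.4 ± 43.2 CPM) than in cortex (452.8 ± 33.9 and 1070 ± 25.1 CPM). Cplx3 had 0.590 ± 0.199 CPM in cerebellum and 9.45 ± 1.01 CPM in cortex, a 15.99-fold difference.

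The bases before the annotated starts are shown for Stx1a, Syt2 and Unc13c, members with wide contrasts in opposite directions, so that the letters can be set beside the levels. Starts were those of RefSeq entries, and 27 of the 33 members had one. These starts can differ from those in the gene annotation used for the counts. Bases past the latter entered the motif searches and CpG counts but are not printed, so some stretches are shorter. Stx1a was nearly lacking from cerebellum, and Syt2 and Unc13c were highest there.
Stx1a (GRCm38.p6, chr5:135023232-135023481, plus strand): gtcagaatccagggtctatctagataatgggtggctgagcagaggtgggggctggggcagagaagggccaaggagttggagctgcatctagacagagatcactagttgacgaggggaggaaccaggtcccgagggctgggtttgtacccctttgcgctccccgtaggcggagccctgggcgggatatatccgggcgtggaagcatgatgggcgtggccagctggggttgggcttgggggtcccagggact
Syt2 (GRCm38.p6, chr1:134646362-134646611, plus strand): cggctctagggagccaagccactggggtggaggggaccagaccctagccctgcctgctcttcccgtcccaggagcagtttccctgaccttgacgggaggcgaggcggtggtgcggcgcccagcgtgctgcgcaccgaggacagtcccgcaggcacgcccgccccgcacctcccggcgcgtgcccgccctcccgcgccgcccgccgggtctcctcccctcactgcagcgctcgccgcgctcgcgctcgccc
Unc13c (GRCm38.p6, chr9:73969038-73969287, minus strand): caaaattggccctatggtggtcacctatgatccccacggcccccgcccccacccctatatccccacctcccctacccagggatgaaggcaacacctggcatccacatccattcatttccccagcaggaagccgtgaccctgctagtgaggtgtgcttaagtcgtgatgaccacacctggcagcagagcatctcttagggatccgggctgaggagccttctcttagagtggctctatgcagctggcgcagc
These stretches differed in CpG content, with 30 CpG dinucleotides before Syt2, 9 before Stx1a and 6 before Unc13c. Over the 27 members the median was 13 (range 5 to 32), and over all 32841 promoters of this length it was 6. TATAAA, searched on both strands in the 250 bases before the start, occurred in 1 of the 27 members (Sv2b) and in 12.4% of all promoters.

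Syn1 is shown because it held the only other motif found. A cyclic AMP response element (TGACGTCA, the same on both strands) was in 1 of the 27 members, Syn1, and in 1.55% of all promoters. The capitals mark it in the stretch before the Syn1 start.
Syn1 (GRCm38.p6, chrX:20921005-20921168, minus strand): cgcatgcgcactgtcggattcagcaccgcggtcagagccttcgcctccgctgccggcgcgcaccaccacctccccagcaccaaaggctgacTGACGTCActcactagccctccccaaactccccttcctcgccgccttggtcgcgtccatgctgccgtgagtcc
Syn1 was at 146.9 CPM or more on average in every brain group and at 0.542 ± 0.301 CPM in Gnb5+/+ atria. A match is a description of these letters and was not tested for binding.

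The genotypes were compared in each region to ask whether loss of Gnb5 changed message levels of the release machinery. It gave no member call in any region. By edgeR's quasi-likelihood test 0 of 33 members passed an adjusted p of 0.05 in cerebellum, where 0.0817% of all genes did, 0 of 33 in hippocampus (0.165% of all genes) and 0 of 33 in cortex (0.0557% of all genes). At an unadjusted p under 0.05 there were 3, 2 and 0 members, and DESeq2 called 0 in each region, with 4, 4 and 0 at an unadjusted p under 0.05. Here and below, counts at an unadjusted p stand without the share of all genes at that threshold. They are not read as a result about the members. The median size of the log2 fold change over the members was 0.13 in cerebellum, 0.06 in hippocampus and 0.14 in cortex, against 0.15, 0.06 and 0.21 over all genes tested. Median standard errors were 0.13, 0.05 and 0.16, and no member exceeded a log2 fold change of 1 in size. These tests do not show that the levels were equal.

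In cerebellum the members with the smallest p were Cplx1, Rab3a and Syp. Cplx1 had 269.3, 303.5 and 349.7 CPM in Gnb5+/+ and 324.3, 380.0 and 560.7 CPM in Gnb5-/- mice (lowest, median, highest), and the ranges overlapped (log2 0.37, SE 0.12, adjusted p = 0.582 by edgeR). Rab3a had 251.2, 278.7 and 297.0 CPM against 286.4, 322.6 and 554.0 CPM (log2 0.34, SE 0.14, adjusted p = 0.582). The highest Gnb5-/- value of Rab3a was replicate 2. Syp had 561.3, 581.8 and 601.6 CPM in Gnb5+/+ and 613.6, 634.1 and 1044 CPM in Gnb5-/- cerebellum (log2 0.27, SE 0.12, adjusted p = 0.582), and here the genotypes did not overlap. Syp and Sv2a were the only members of 33 without overlap in cerebellum, where 1.13% of all genes had none, and there were 0 in hippocampus (0.677% of all genes) and 0 in cortex (0.573%). Sv2a, picked out for this after its values were seen, had 456.9, 472.9 and 493.8 CPM against 494.6, 512.5 and 528.8 CPM (log2 0.10, adjusted p = 0.582). The exact permutation p of both was 0.00216, the smallest that 6 against 6 mice allow, among 140 such two-sided tests in 5 tissues that were not adjusted and of which 15 fell under 0.05. Without replicate 2 of Gnb5-/- cerebellum the fold changes of Cplx1, Rab3a and Syp were 0.25, 0.17 and 0.13 (adjusted p = 0.218, 0.209 and 0.223 by edgeR), 0 of 33 members were called, 7 had an unadjusted p under 0.05, and 0.359% of all genes were called. Syp and Sv2a were again the only members without overlap (1.7% of all genes), and 7 of 33 exact permutation p fell under 0.05, where 6 did with it. Slc17a6 then had the largest difference (log2 -1.19, SE 0.61, adjusted p = 0.473 by edgeR, against -0.20 with all libraries). The shares of all genes given here are for adjusted calls and for overlap. None is given for unadjusted or exact permutation p, so those counts are not read as a result about the members.

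In hippocampus, which held none of the 3 libraries that stood apart, differences were small. Erc2 had 224.2, 234.6 and 255.9 CPM in Gnb5+/+ and 240.4, 256.2 and 296.7 CPM in Gnb5-/- mice (log2 0.15, SE 0.05, adjusted p = 0.526 by edgeR). Doc2b differed by 0.20 on the log2 scale (SE 0.09, adjusted p = 0.646), and Syp by 0.05 (SE 0.03, adjusted p = 0.657). All 6 Gnb5-/- hippocampi lay above the Gnb5+/+ mean for Erc2 and for Syp, with overlapping ranges. Fold changes were positive for 23 members and negative for 10 in hippocampus, for 16 and 17 in cerebellum and for 10 and 23 in cortex, where 50.1%, 50.1% and 50.9% of all genes were positive. The cerebellar and cortical counts include the 3 libraries that stood apart. Without them the split in cerebellum was the same as in hippocampus, and most members in cortex were still negative. No share of all genes is given for the signs without them, so that split is not read as a result about the members.

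In cortex the smallest p belonged to Pclo, Rph3a and Vamp2. Pclo had 385.7, 411.0 and 420.2 CPM in Gnb5+/+ and 190.0, 367.7 and 395.1 CPM in Gnb5-/- mice (log2 -0.36, SE 0.18, adjusted p = 0.474 by edgeR), Rph3a 438.7, 523.0 and 532.3 against 215.5, 431.0 and 500.4 CPM (log2 -0.33, SE 0.17, adjusted p = 0.474), and Vamp2 874.5, 905.4 and 941.1 against 899.9, 950.1 and 2091 CPM (log2 0.35, SE 0.19, adjusted p = 0.474). The ranges overlapped for each, and the extreme Vamp2 value was replicate 3. Without replicates 3 and 5 the log2 fold changes became -0.10, -0.12 and 0.04, the median size over the members fell from 0.14 to 0.04, and 29 of 33 members came closer to 0. Again 0 of 33 were called (2 at an unadjusted p under 0.05, 0.142% of all genes called), 0 had no overlap (1.04% of all genes), and 1 exact permutation p fell under 0.05, where 6 did with all libraries.

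**Figure D3:**
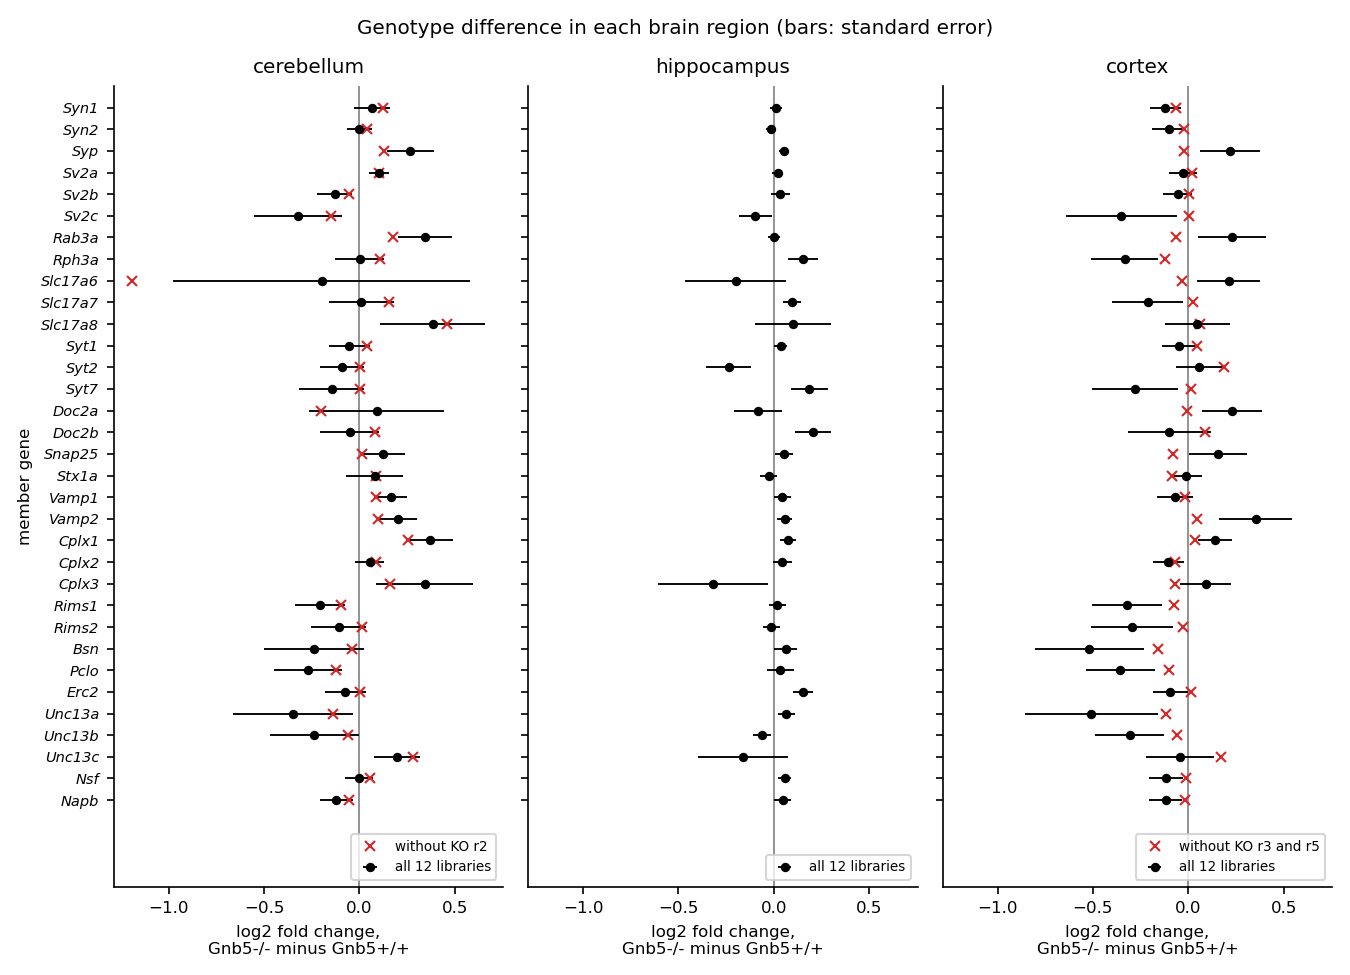
Log2 fold change of each member, Gnb5-/- minus Gnb5+/+, in cerebellum, hippocampus and cortex, with standard errors as bars. Values lie close to 0 in hippocampus (median size 0.06), errors are wider in cerebellum and cortex, and no member was called in any region.

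The 3 libraries that stood apart did so along gene length. In replicate 2 of Gnb5-/- cerebellum and replicates 3 and 5 of Gnb5-/- cortex, the 6 longest members (Pclo, Bsn, Unc13b, Unc13a, Sv2c and Unc13c) were each below the Gnb5+/+ mean of their region, with median log2 deviations of -1.70, -1.52 and -1.12. The 6 shortest (Rab3a, Snap25, Stx1a, Cplx1, Vamp2 and Doc2a) were each above it, with medians of 0.76, 0.86 and 0.29. Across the 33 members, the Pearson r of deviation with log2 transcript length was -0.76, -0.72 and -0.85 in these libraries and between -0.49 and 0.41 in the other 33 brain libraries. Genes in one library share its depth and RNA and are not independent. Other protein-coding genes had the same sign, with r of -0.61, -0.53 and -0.55 against -0.23 to 0.17. RNA quality, dissection and library preparation were not tested.

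**Figure D4:**
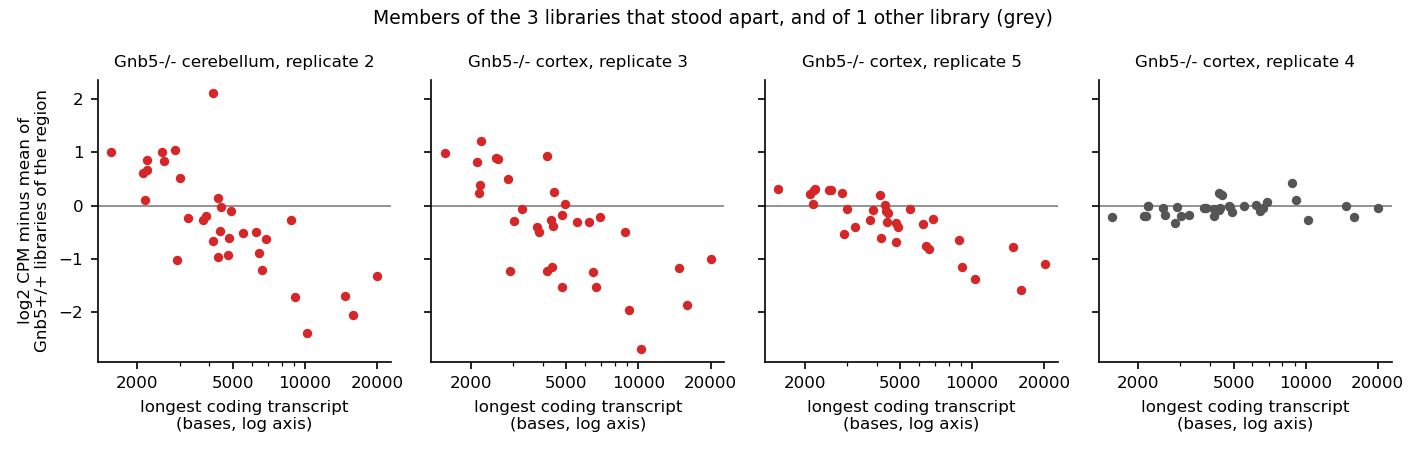
Deviation of each member's log2 CPM from the Gnb5+/+ mean of its region against the length of its longest coding transcript (bases, log axis), in the 3 libraries that stood apart (red) and 1 other (grey). Long genes fall below 0 and short genes above it in the 3 libraries.

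The genotype difference was then set between regions. The interaction test called 0 of 33 members between cerebellum and hippocampus (0.0206% of all genes called), 0 between cerebellum and cortex (0.0206%) and 0 between hippocampus and cortex (0.0%) by edgeR, and DESeq2 called 0 in each. At an unadjusted p under 0.05 there were 1, 1 and 2 members by edgeR, with Rph3a between hippocampus and cortex lowest (log2 0.49, SE 0.19, adjusted p = 0.607). Without the 3 libraries 0 members were called again (0.0559%, 0.0712% and 0.0% of all genes called), 1, 6 and 3 had an unadjusted p under 0.05, and Rph3a was at 0.28 (SE 0.10, adjusted p = 1.00).

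Regional contrasts in Gnb5-/- mice, a separate set of animals, ran in the same directions for most members. Cerebellum and hippocampus differed in 23 members (53.9% of all genes), cerebellum and cortex in 26 (54.1%), and hippocampus and cortex in 12 (21.6%). The sign was that of Gnb5+/+ mice for 32, 31 and 29 of the 33 members. Shared signs were not counted over all genes, with or without the 3 libraries that stood apart. Without the 3 libraries the counts were 32 (75.9% of all genes), 30 (73.4%) and 23 (41.8%), and the sign was shared by 32, 32 and 29 members. Stx1a, Doc2a, Syt2, Unc13c and Erc2 were called in the cerebellar comparisons of both genotypes. With the mouse as a block, Slc17a6 gained a call between cerebellum and hippocampus (log2 -1.89, adjusted p = 0.0329), and Sv2a and Rab3a between cerebellum and cortex (adjusted p = 0.0647 and 0.0686) and Sv2b between hippocampus and cortex (adjusted p = 0.0708) lost theirs.

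Heart served as the background for genes of nerve terminals. CPM of heart and brain libraries were scaled apart, so levels set between them are approximate. In Gnb5+/+ mice 14 of the 33 members were below 1 CPM in both atria and ventricles, 9 were above 10 CPM in atria and 6 of these also in ventricles. Snap25 was counted 0 times in 21 of the 36 heart libraries, Doc2a in 34 and Slc17a6 in 30, and Syt1 had 0.474 ± 0.604 CPM in Gnb5+/+ atria. Slc17a7, the vesicular glutamate transporter, was at 193.3 ± 26.1 CPM in Gnb5+/+ atria and 25.4 ± 6.86 CPM in ventricles. Unc13b had 73.3 ± 8.93 and 17.9 ± 1.82 CPM, and each Gnb5+/+ atrial library (67.5 CPM or more) was above each Gnb5+/+ cerebellar library (37.9 CPM or less). Vamp2 (66.0 and 57.9 CPM), Syt7 (53.5 and 45.2 CPM), Rab3a (39.6 and 30.8 CPM) and Nsf (27.7 and 26.4 CPM) were present in both chambers. Syn2 (14.9 against 2.07 CPM) and Sv2a (14.8 against 2.68 CPM) lay higher in atria. Summed pan-neuronal markers (6 genes) reached 3.02 to 7.59 CPM in Gnb5+/+ atria and 1.29 to 3.31 CPM in ventricles, and markers of autonomic neurons (6 genes) 10.7 to 20.3 and 2.16 to 6.03 CPM; their part in these levels was not tested. The stretches before the starts of Slc17a7 and Unc13b, the members with the highest atrial levels, follow.
Slc17a7 (GRCm38.p6, chr7:45163671-45163920, plus strand): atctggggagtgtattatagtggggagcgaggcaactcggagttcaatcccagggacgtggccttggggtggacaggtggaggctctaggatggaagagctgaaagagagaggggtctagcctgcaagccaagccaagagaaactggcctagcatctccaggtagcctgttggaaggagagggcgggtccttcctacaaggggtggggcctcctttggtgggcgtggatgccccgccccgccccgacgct
Unc13b (GRCm38.p6, chr4:43058703-43058952, plus strand): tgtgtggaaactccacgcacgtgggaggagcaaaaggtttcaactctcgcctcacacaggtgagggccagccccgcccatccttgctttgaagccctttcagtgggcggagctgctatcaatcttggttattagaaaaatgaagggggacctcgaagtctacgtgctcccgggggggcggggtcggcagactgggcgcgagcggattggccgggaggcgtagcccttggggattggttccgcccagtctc
Neither held TATAAA or TGACGTCA, and they had 9 and 16 CpG dinucleotides.

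**Figure D5:**
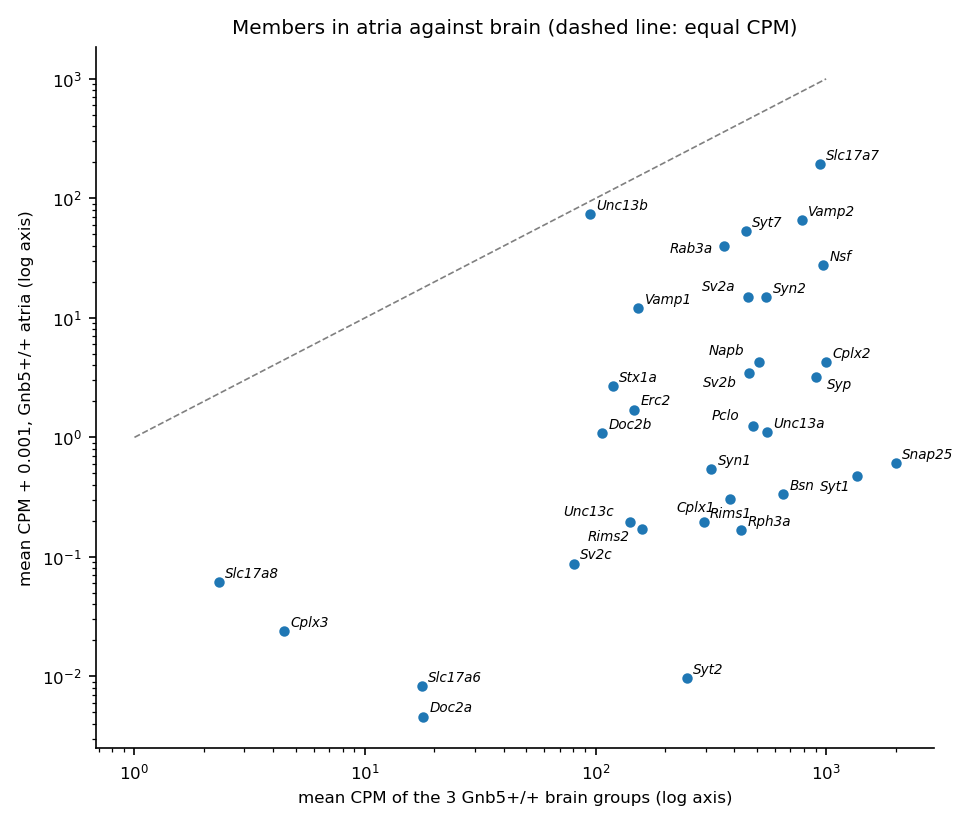
Mean CPM of each member in Gnb5+/+ atria (log axis, with 0.001 added) against its mean over the 3 Gnb5+/+ brain groups (log axis), with the dashed line at equal CPM. Slc17a7, at 193.3 CPM, is the highest member in atria, and Snap25 and Syt1 are below 1 CPM there. CPM of heart and brain were scaled apart.

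Genotype called no member in heart either: edgeR called 0 of 23 tested in atria (0.253% of all genes called, 2 members at an unadjusted p under 0.05) and 0 of 18 in ventricles (0.188%, 1 member), and DESeq2 called 0 in both, with 2 and 1 at an unadjusted p under 0.05. Slc17a7 had the smallest p in both chambers. Atria had 172.2, 187.4 and 244.0 CPM in Gnb5+/+ and 106.5, 135.7 and 207.6 CPM in Gnb5-/- mice (log2 -0.38, SE 0.14, adjusted p = 0.455 by edgeR). Ventricles had 17.5, 25.7 and 34.6 CPM against 13.1, 17.1 and 23.4 CPM (log2 -0.49, SE 0.20, adjusted p = 0.877), and the ranges overlapped in both. Next in atria were Erc2 (log2 -0.41, adjusted p = 0.547) and Rab3a (log2 -0.12, adjusted p = 0.768), and in ventricles Unc13a (log2 0.46) and Pclo (log2 0.45, both adjusted p = 1.00 by edgeR).

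A further 49 presynaptic genes (other synaptotagmins, vesicle membrane proteins, SNARE regulators, transporters, active zone and dense-core vesicle genes) were examined beside the members. EdgeR called 0 of 46 tested between genotypes in cerebellum (8 at an unadjusted p under 0.05), 0 of 47 in hippocampus (11), 0 of 48 in cortex (1), 0 of 33 in atria (4) and 0 of 27 in ventricles (3). DESeq2 called Syt12, a synaptotagmin, in hippocampus (log2 0.34, SE 0.07, adjusted p = 0.00192). It also called Scg3, a granule protein, in atria (log2 1.32, SE 0.35, adjusted p = 0.0268), and 0 in the other tissues. Of the hippocampal edgeR fits with 1 library left out, only that without Gnb5-/- replicate 3 called Syt12 (log2 0.38, adjusted p = 0.0135). Scg3 lies 0.297 Mb from Gnb5 on chromosome 9, and the part of this nearness in its call was not tested. The share of all genes that DESeq2 called is not given. Between Gnb5+/+ regions 45, 43 and 34 of 48 of these genes differed (cerebellum with hippocampus, cerebellum with cortex, hippocampus with cortex). Of all genes tested 77.2%, 77.4% and 48.3% differed in the same order.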

How the data were processed

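Stranded total RNA libraries of 72 tissue samples were sequenced as single ends; per the labels and the study's methods the authors trimmed reads with cutadapt 1.8, aligned them with STAR 2.5.3a and deposited raw counts per gene from HTSeq 0.9.1. Ensembl identifiers were named from a GENCODE mouse annotation of GRCm38 (53620 of 53715 matched), and the summary rows were kept out. Counts were tested with edgeR 4.0.16 in R 4.3.3 (quasi-likelihood test, TMM size factors, count minimum 10, Benjamini-Hochberg adjustment over all genes, threshold 0.05), with DESeq2 1.42.0, other size factors, no filter, a block for the mouse and left-out libraries as alternatives. The genotype fit had no covariate, and heart fits held all 3 genotypes. In the alternative genotype fits the block was the replicate number, not the mouse. Log2 CPM (prior count 2) of single members was tested by exact permutation (924 splits of 6 against 6). Tests were tried on simulated data with 200 changed genes. Same-numbered libraries of a genotype were the same mouse by the mouse numbers in the sample titles. Their deviations from group means correlated at 0.259 to 0.488 in Gnb5+/+ brain. In Gnb5-/- mice the values were 0.13 to 0.368 between cerebellum and hippocampus and 0.051 to 0.276 between hippocampus and cortex. Between Gnb5-/- cerebellum and cortex they ran from -0.627 to 0.624. Numbers did not pair the genotypes. CPM were relative to the reads of genes that passed the filter, scaled by TMM size factors, apart for brain and heart libraries. Slc17a8, Cplx3 and Doc2a rested on few reads in cerebellum. The members, the list of other presynaptic genes and the markers were chosen with earlier results of these data known. Named with a genotype test were called members and the 3 others of smallest p per tissue, and Sv2a, Syt12 and Scg3 were added after their values were seen.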

Additional observations from a re-analysis of the deposited data

Results flagged for a closer look

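Each member was examined in every group of 6 libraries with a median of at least 1 CPM for a highest or lowest library far from the rest (a gap to its nearest neighbour past Dixon's 95% critical value for 6 libraries). Of 295 such sets 45 were picked out, 33 of them among 192 brain sets. About 1 in 20 would be picked out if sets were independent and normally distributed. Genes in one library are not independent, so this rate is no measure for these counts. Of the 45, 25 were in 2 of the 3 libraries that stood apart.

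Replicate 2 of Gnb5-/- cerebellum was the highest of its group for Syp (1044 CPM), Rab3a (554 CPM), Slc17a6 (17.7 CPM), Snap25 (3341 CPM), Vamp1 (284.5 CPM) and Vamp2 (885.7 CPM). It was the lowest for Sv2c (35.3 CPM), Slc17a7 (201.7 CPM), Syt1 (412.9 CPM), Syt7 (199.3 CPM), Doc2b (62.8 CPM), Rims1 (172.6 CPM), Rims2 (123.8 CPM), Bsn (135.4 CPM), Pclo (253.6 CPM), Unc13b (9.41 CPM) and Nsf (461.8 CPM). Replicate 3 of Gnb5-/- cortex was the highest of its group for Syp (1991 CPM), Rab3a (817.9 CPM), Slc17a6 (60.9 CPM), Doc2a (73.7 CPM), Snap25 (3579 CPM) and Vamp2 (2091 CPM), and the lowest for Syn2 (387.9 CPM) and Sv2b (415.2 CPM).

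In the other libraries, the values were as follows. Gnb5+/- atria replicate 4 was highest for Vamp1 (18 CPM). Gnb5+/- ventricles replicate 3 was highest for Stx1a (1.94 CPM). Gnb5+/- ventricles replicate 4 was highest for Rab3a (42.1 CPM). Gnb5-/- atria replicate 1 was lowest for Nsf (23.2 CPM). Gnb5-/- ventricles replicate 3 was highest for Unc13b (27.9 CPM) and lowest for Vamp2 (55.2 CPM). Gnb5-/- ventricles replicate 5 was lowest for Vamp1 (8.21 CPM) and Napb (2.5 CPM). Gnb5+/+ atria replicate 1 was highest for Unc13b (90.4 CPM). Gnb5+/+ atria replicate 5 was highest for Syp (4.83 CPM). Gnb5+/+ atria replicate 6 was highest for Slc17a7 (244 CPM) and lowest for Vamp2 (59.6 CPM). Gnb5+/+ cerebellum replicate 2 was highest for Erc2 (34.2 CPM). Gnb5+/+ cerebellum replicate 3 was lowest for Stx1a (1.41 CPM). Gnb5+/+ cortex replicate 2 was lowest for Slc17a6 (27.6 CPM). Gnb5+/+ cortex replicate 5 was lowest for Syn1 (376.9 CPM), Syp (930.9 CPM) and Stx1a (238.8 CPM). Gnb5+/+ cortex replicate 6 was highest for Cplx3 (11.4 CPM). Gnb5+/+ hippocampus replicate 3 was lowest for Rims2 (86.5 CPM).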

How the results depend on the processing

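Of the 141 alternative values for counts of called members, 140 stayed within 1.5 times the main count. The exception was hippocampus against cortex in Gnb5-/- mice, 12 members with all libraries and 23 without the 3 libraries that stood apart, a setting chosen after seeing the data. Leaving out 1 mouse at a time gave 29 to 30, 32 to 33 and 24 to 25 called members in Gnb5+/+ mice (cerebellum against cortex, cerebellum against hippocampus, hippocampus against cortex) and 23 to 27, 21 to 25 and 11 to 15 in Gnb5-/- mice. Genotype gave 0 called members throughout. With the mouse as a replicate block the region counts were 30, 32 and 26 in Gnb5+/+ and 24, 24 and 11 in Gnb5-/- mice. Interaction counts stayed at 0. Genotype fits had the replicate number as block, which grouped different mice, and their counts stayed at 0. Besides the calls given with the regions, the blocks changed no call of a member. Small region differences changed sign. In Gnb5+/+ hippocampus against cortex, Syt7 was 0.0076 without the filter, and leaving out 1 mouse gave -0.062 to 0.025 for Syt7 and -0.023 to 0.057 for Pclo. In Gnb5-/- cerebellum against cortex, leaving out 1 mouse gave -0.0051 to 0.397 for Syt7, -0.086 to 0.282 for Snap25, -0.080 to 0.227 for Rims1 and -0.299 to 0.182 for Bsn, and in hippocampus against cortex -0.020 to 0.080 for Syn1. Without the 3 libraries Rims1 was -0.063 in cerebellum against cortex, and in hippocampus against cortex Syn1 was -0.0055, Syp 0.047, Rab3a 0.0062 and Unc13a -0.18. The cause was not tested. With the other length, shares within families moved by more than 1 SD between libraries in 79 of 132 cases, by at most 15.6 percentage points (Rims1 in Gnb5-/- cerebellum). Depth limited Doc2a, Slc17a8 and Cplx3 in cerebellum, where levels were below 1 CPM.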

Other observations

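Gnb5+/- mice, whose heart libraries alone are held here, shared in the estimate of the spread and entered no comparison here. Slc17a7 had 187.0 ± 22.8 CPM in atria and 26.1 ± 6.80 CPM in ventricles (SD, n = 6). Unc13b had 77.8 ± 2.34 and 16.4 ± 3.35 CPM, and Gnb5 itself 12.8 ± 1.64 and 11.5 ± 1.60 CPM.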
